A study of Mus musculus with 19 samples.

Results

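Cytosolic ribosomal protein genes were taken from the deposited gene tables by symbol: protein-coding genes named Rpl or Rps plus a number, with an optional a, x, l or y, together with Rplp0, Rplp1, Rplp2 and Rpsa, leaving out the kinases of the Rps6ka and Rps6kb families. The rule gave 80 of 56941 genes, 49 of the large and 31 of the small ribosomal subunit, on 19 chromosomes. It did not match Rps3a1, Fau and other relatives, which are given apart from the members.

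The libraries were bulk RNA-seq of bronchoalveolar lavage cells, labelled alveolar macrophages with no sort described, from 19 female mice aged 7 to 8 weeks. The 4 groups were exposed ICAM-1 null (n = 5), exposed wild type C57Bl/6J (n = 5), naive ICAM-1 null (n = 5) and naive wild type C57Bl/6J (n = 4). Exposed mice had received 100 µL of pHrodo-labelled Staphylococcus aureus bioparticles at 2.27 mg/mL by oropharyngeal aspiration under isoflurane and were lavaged 1 h later, while naive mice carry no treatment in the labels. ICAM-1 is an adhesion molecule of the cell surface to which integrins on leukocytes bind. No source used here gives the background of the null line, so loss of ICAM-1 and other differences between the lines cannot be told apart. No litter or batch is named in the labels, so the p-values speak only to variation between the mice that were lavaged.

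Each cytosolic ribosome is built of ribosomal RNA and a set of ribosomal proteins, and cells make these proteins in matched amounts. Their mRNAs are among the most abundant of a cell and typically begin with a C followed by a run of pyrimidines, the terminal oligopyrimidine (TOP) motif, through which mTORC1 and the RNA-binding protein LARP1 control their translation and stability. Ribosomal proteins left unassembled, above all Rpl5 and Rpl11, can bind Mdm2 and so raise p53. In macrophages, sensing of bacteria is followed by rapid synthesis of inflammatory proteins, for which ribosomes are needed.

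The promoter table of RefSeq (build GRCm38.p6, not the build of the expression files) matched 60 of the 80 members by symbol. The TOP-like motif searched was a C followed by at least 4 bases that are each C or T, read on the sense strand only. It stood exactly at the annotated start in 13 of the 60 (21.7%), against 3.01% of the 27025 genes of the table. A run of at least 5 such bases beginning with C touched the 10 bases on either side of the start in 42 (70.0%), against 39.7% of all genes. Windows of 30 bases, 20 before and 10 from the start on, are shown for members with a run at the start (Rpl14, Rps27 and Rplp2) and for members with none near it (Rplp0 and Rpl24, which stand out in the comparisons). Capitals mark the run, and the positions are chr9:120571497-120571526 (+) for Rpl14, chr3:90213639-90213668 (-) for Rps27, chr7:141447631-141447660 (+) for Rplp2, chr5:115559447-115559476 (+) for Rplp0 and chr16:55966255-55966284 (+) for Rpl24.
Rpl14: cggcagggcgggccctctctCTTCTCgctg
Rps27: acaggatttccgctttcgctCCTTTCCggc
Rplp2: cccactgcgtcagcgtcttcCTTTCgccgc
Rplp0: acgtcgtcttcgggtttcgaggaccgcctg
Rpl24: taggaagaaagctgttgctaggaaacagac
A missing run says only that these letters are not in this window of the annotated start.

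Levels are compared between members in TPM, which is scaled by transcript length and to the same sum in each library. Rplp1, a P-stalk protein that helps recruit elongation factors, had the highest mean over the 19 libraries at 3835 TPM. The next of the large subunit were Rpl13a, Rpl10 and Rpl8, with 2463 ± 130, 2161 ± 87.5 and 1547 ± 126 TPM in exposed null, 2763 ± 312, 2114 ± 187 and 1486 ± 80.7 TPM in exposed wild type, 3349 ± 184, 2427 ± 151 and 1626 ± 63.3 TPM in naive null, and 3412 ± 211, 2439 ± 213 and 1762 ± 129 TPM in naive wild type mice (SD, n = 5, 5, 5 and 4). Among the most abundant of the small subunit were Rps14, Rps9 and Rps2, at 2175 ± 170, 2152 ± 204 and 1926 ± 146 TPM in exposed null mice (SD, n = 5). At the other end stood the paralogs Rpl3l and Rpl39l, at most 6.55 and 12.8 TPM in any library, and Rpl10l, which is known for its role in the male germ line. Rpl10l had 0 counts in all 19 libraries. A count of 0 allows up to 3 fragments, or 12 counts if 1 fragment is worth 4 counts, which is 0.365 CPM in the shallowest and 0.149 CPM in the deepest library. It was the only member that did not pass the filter on low counts, so the tests cover 79 members.

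The order of the members was nearly the same in every group: Spearman's rho of the 80 group means lay between 0.971 and 0.992 over the 6 pairs of groups, given as a description of values from shared genes and tables. The summed TPM of the large-subunit members was 1.42 to 1.48 times that of the small-subunit members in all 19 libraries. Members also varied little between mice of a group. Their median within-group SD of log2 CPM was 0.12, against 0.24 over all 20501 genes tested. Most members are abundant, and they were not set against genes of similar level, so the part of abundance in this contrast was not tested.

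Together the 80 members held 6.94, 7.28, 8.31, 7.60 and 8.08% of all TPM in the 5 exposed null libraries. They held 7.30, 7.72, 7.24, 7.33 and 7.41% in the 5 exposed wild type, 7.79, 7.496, 8.54, 7.77 and 8.25% in the 5 naive null, and 8.86, 9.29, 9.16 and 7.88% in the 4 naive wild type libraries. The exposed wild type libraries were all below the naive wild type libraries, while exposed and naive null libraries overlapped. The means were 7.64 ± 0.566% in exposed null, 7.40 ± 0.189% in exposed wild type, 7.97 ± 0.417% in naive null and 8.80 ± 0.639% in naive wild type mice (SD). Naive wild type replicate 4 stood apart from its group: it was the deepest library of the series, with 80.3 M counts against 32.8 to 41.0 M in the other 3, and without it the naive wild type mean was 9.11 ± 0.221% (SD, n = 3).

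**Figure D1:**
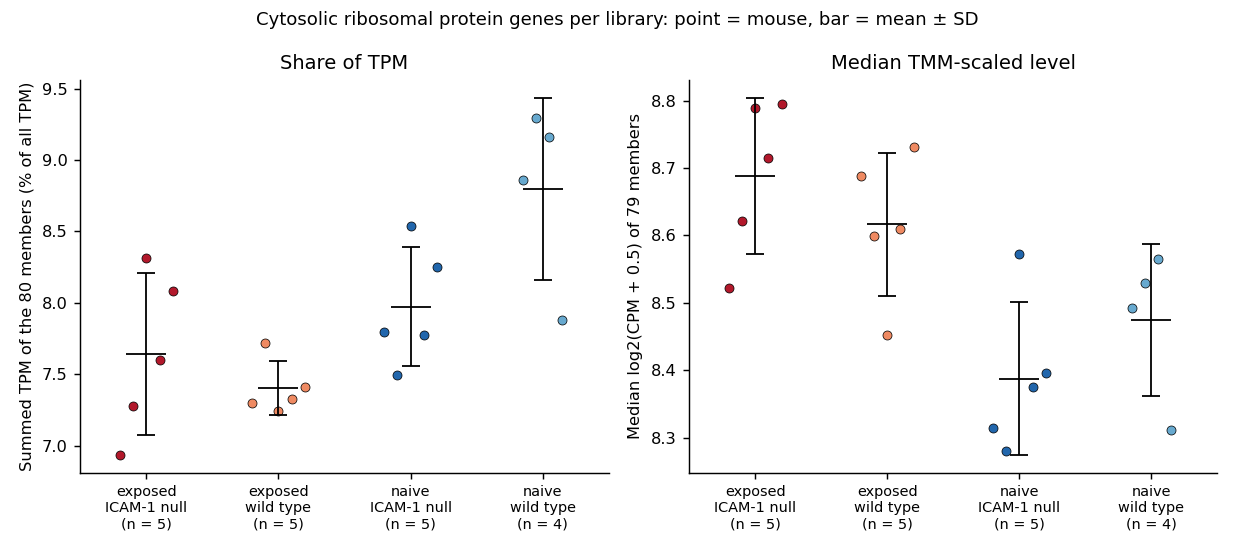
Left: summed TPM of the 80 members as a percentage of all TPM; right: median log2(CPM + 0.5) of the 79 tested members on TMM-scaled counts; each point is a mouse, bars are mean ± SD, and the y axes do not start at 0. Exposed mice have lower TPM shares on the left (means 7.64 and 7.40%, against 7.97 and 8.80% in naive mice of the same genotypes) and higher TMM-scaled medians on the right (8.69 and 8.62, against 8.39 and 8.47).

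The direction of the exposure difference depended on how libraries were scaled. TMM, which sets the scale by the bulk of genes, gave median log2 CPM of the members of 8.69 ± 0.12 in exposed null and 8.62 ± 0.11 in exposed wild type mice, against 8.39 ± 0.11 in naive null and 8.47 ± 0.11 in naive wild type mice (SD). The TMM factors themselves moved with exposure: they lay between 0.865 and 0.899 in exposed null and between 0.872 and 0.955 in exposed wild type libraries, against 1.11 to 1.13 in naive null and 1.15 to 1.17 in naive wild type libraries. On TPM the median over all genes tested shifted with exposure too, by -0.19 in null and -0.22 in wild type mice on the log2(TPM + 1) scale, so the member values below are given beside the all-gene median on each scale.

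In ICAM-1 null mice, 69 of the 79 members were higher and 0 were lower after exposure on TMM-scaled counts (edgeR quasi-likelihood test, Benjamini-Hochberg adjusted p under 0.05 over all genes), where 21.4% of all genes were higher and 23.4% lower. The median member difference was 0.31 on the log2 scale, or 1.24-fold, beside 0.02 for all genes tested, and 77 of 79 differences were positive. At an unadjusted p under 0.05, 71 members differed, all of them higher, where 50.9% of all genes differed in either direction. DESeq2 called 70 members higher and 0 lower, where 23.4% of all genes were higher and 23.5% lower. The large subunit had 40 of 48 members higher with a median of 0.30, and the small subunit 29 of 31 with a median of 0.32. On log2(TPM + 1) with limma the picture changed: 2 members were higher and 8 lower with a median of -0.05, where 10.9% of all genes were higher and 41% lower with a median of -0.19. The member median thus lay above the all-gene median on both scales in null mice, but its sign differed.

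The 2 members higher in null mice on both scales were Rps25 and Rpl24. Rps25 is a small-subunit protein known for its part in initiation at viral internal ribosome entry sites. It had 813, 799, 942, 1030 and 1007 TPM in exposed null mice, against 801, 633, 759, 727 and 810 TPM in naive null mice. These TPM ranges overlapped slightly, while on TMM-scaled counts all exposed null libraries (411 to 485 CPM) lay above all naive null libraries (292 to 340 CPM). The difference was 0.54 (SE 0.06, adjusted p = 2.4e-07 by edgeR). Rpl24, a large-subunit protein at the bridge between the subunits, had 831, 815, 952, 865 and 963 TPM in exposed null mice, against 740, 699, 828.8, 713 and 775 TPM in naive null mice. Only naive null replicate 3 reached into the exposed TPM range. On TMM-scaled counts Rpl24 differed by 0.58 (SE 0.07, adjusted p = 1.6e-06 by edgeR), the largest difference of any member in null mice.

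Rpl19, Rpl14 and Rps13 completed the 5 members with the smallest p among those higher in null mice. Rpl19 differed by 0.48 (SE 0.07), Rpl14 by 0.48 (SE 0.07) and Rps13 by 0.52 (SE 0.08) on TMM-scaled counts, with edgeR adjusted p of 2.8e-06, 6e-06 and 7.4e-06. On log2(TPM + 1) these 3 differed by 0.13, 0.16 and 0.14, with limma adjusted p of 0.1, 0.078 and 0.1. The 10 members not called in null mice included Rpl7a, Rpl9, Rpl13a, Rpl17, Rpl22, Rpl36a, Rpl39l, Rpl3l and Rps19. Rpl13a, which is known for a role outside the ribosome in silencing of inflammatory mRNAs in human monocytes, had 2298, 2583, 2601, 2451 and 2383 TPM in exposed null mice, against 3212, 3105, 3550, 3444 and 3436 TPM in naive null mice. All exposed null libraries lay below all naive null libraries on TPM, and limma called the gene lower there, yet on TMM-scaled counts the groups overlapped and the difference was -0.05 (SE 0.07, adjusted p = 0.58 by edgeR).

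**Figure D2:**
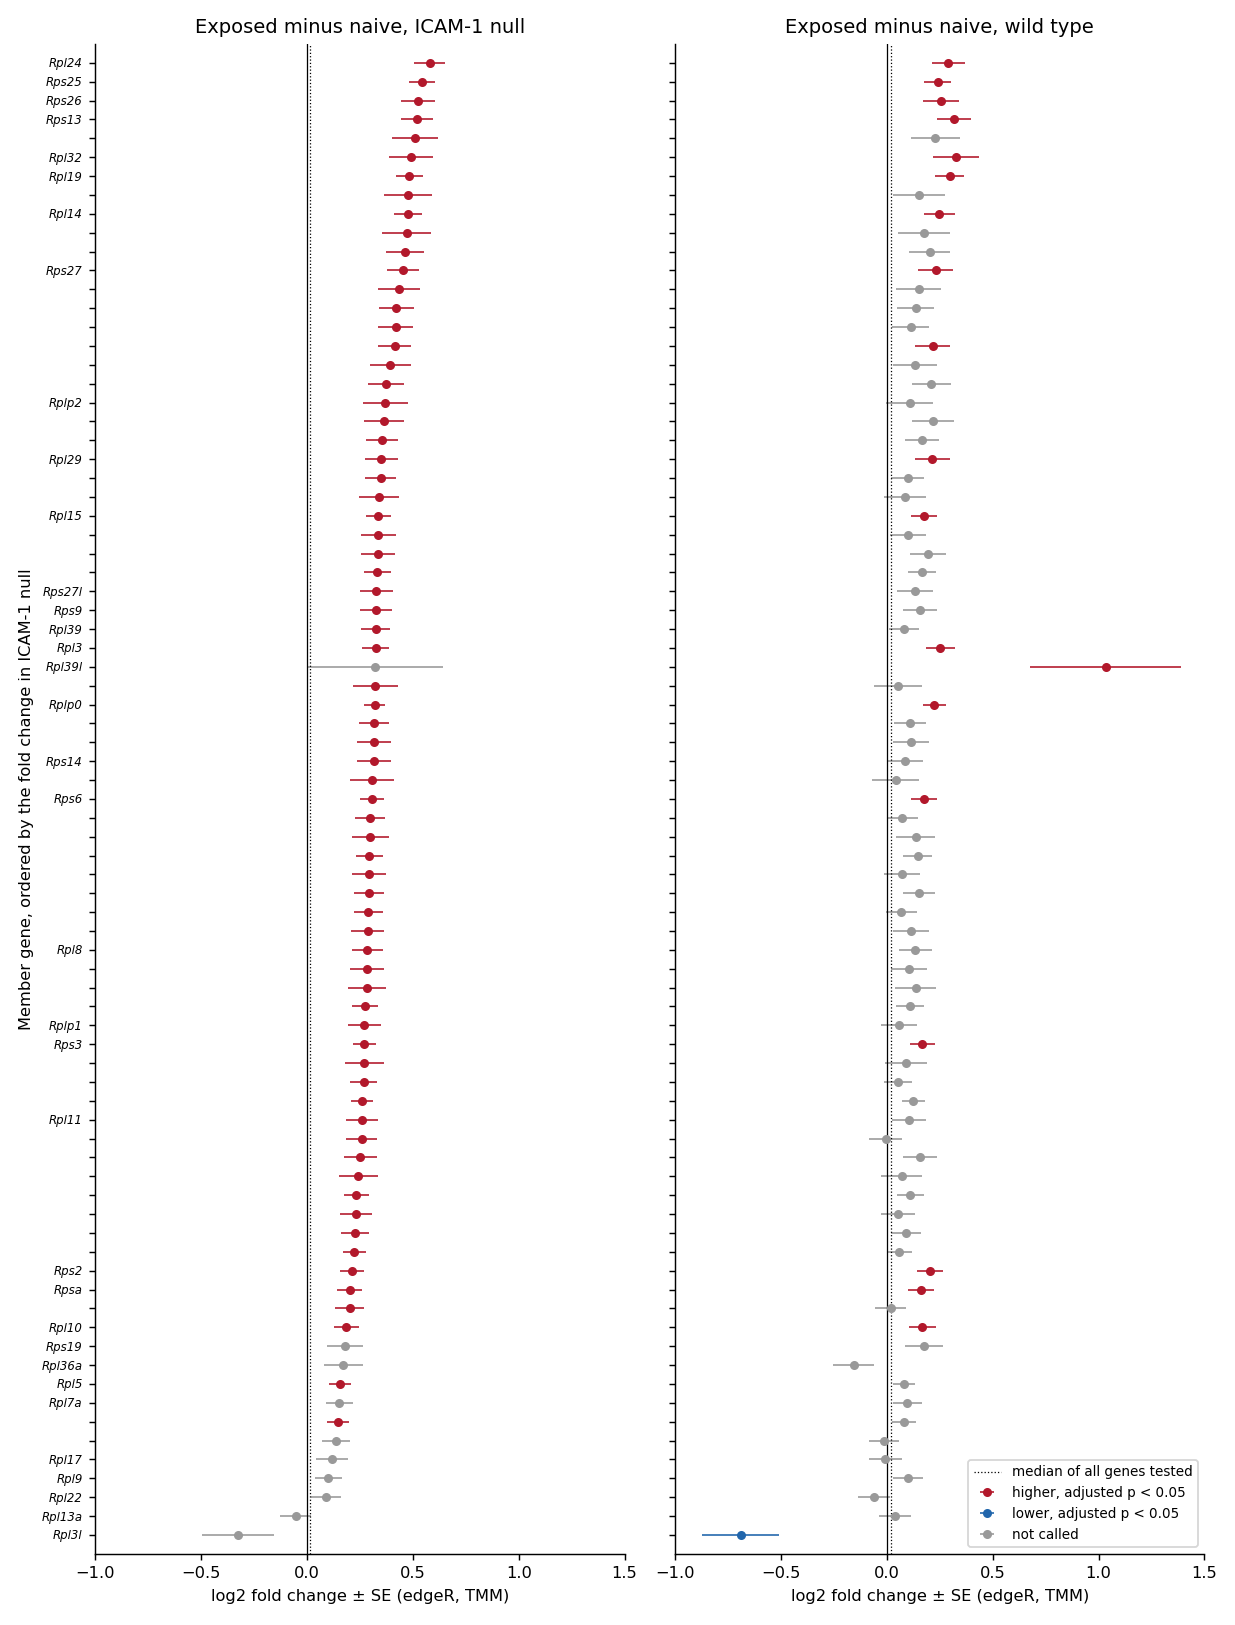
Difference between exposed and naive mice (log2 fold change ± SE, edgeR on TMM-scaled counts) of the 79 tested members, with names for those in the text, in ICAM-1 null mice on the left and wild type mice on the right, in the order of the null values; the dotted line is the median of all genes tested. Most members sit near 0.31 in null mice and near 0.13 in wild type mice on this scale, while on TPM both medians are negative (-0.05 and -0.24).

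In wild type mice, 19 members were higher and 1 was lower after exposure on TMM-scaled counts (edgeR), where 20.1% of all genes were higher and 20.2% lower, so the share of members called higher was near the background. The median member difference was 0.13, or 1.10-fold, beside 0.02 for all genes. On log2(TPM + 1) the direction was the opposite: limma called 0 members higher and 55 lower with a median of -0.24, where 11% of all genes were higher and 41% lower with a median of -0.22. DESeq2 called 21 members higher and 1 lower, where 21.9% of all genes were higher and 20.9% lower. The 19 called higher on TMM-scaled counts included Rpl3, Rpl10, Rpl14, Rpl15, Rpl19, Rpl24, Rpl29, Rpl32, Rpl39l, Rplp0, Rps2, Rps3, Rps6, Rps13, Rps25, Rps26, Rps27 and Rpsa, and the one called lower was Rpl3l. The members called higher were 24.1% of those tested. This share fell below that of all genes when single libraries were left out: 8 members (10.1%) against 18.4% of all genes without naive wild type replicate 4, 11 (13.9%) against 17.2% to 18.9% without exposed wild type replicate 1 or naive wild type replicate 1 or 3, and 12 (15.2%) against 19.4% without exposed wild type replicate 5. With replicate 4 as the only naive wild type library, a fit that assumes this library to vary like those of the other groups, 14 (17.7%) were higher against 8.09% of all genes. Whether the members were called more or less often than all genes thus rested on single libraries.

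The members with the smallest p in wild type mice were Rpl19, Rplp0, Rps13, Rpl3 and Rps25. Rpl19 had 902, 952, 929, 947 and 895 TPM in exposed wild type mice, against 1001, 1043, 988 and 878 TPM in naive wild type mice. Its TPM ranges overlapped because of naive wild type replicate 4, whereas on TMM-scaled counts the exposed libraries (377 to 425 CPM) all lay above the naive ones (297 to 348 CPM). The TMM-scaled difference of Rpl19 was 0.30 (SE 0.07, adjusted p = 0.0016 by edgeR), against -0.08 on log2(TPM + 1). Rps13 differed by 0.32 (SE 0.08), Rpl3 by 0.25 (SE 0.07) and Rps25 by 0.24 (SE 0.065) on TMM-scaled counts, and these differences were -0.09, -0.15 and -0.04 on log2(TPM + 1). Rpl3 is a large-subunit protein that reaches toward the peptidyl transferase center.

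**Figure D3:**
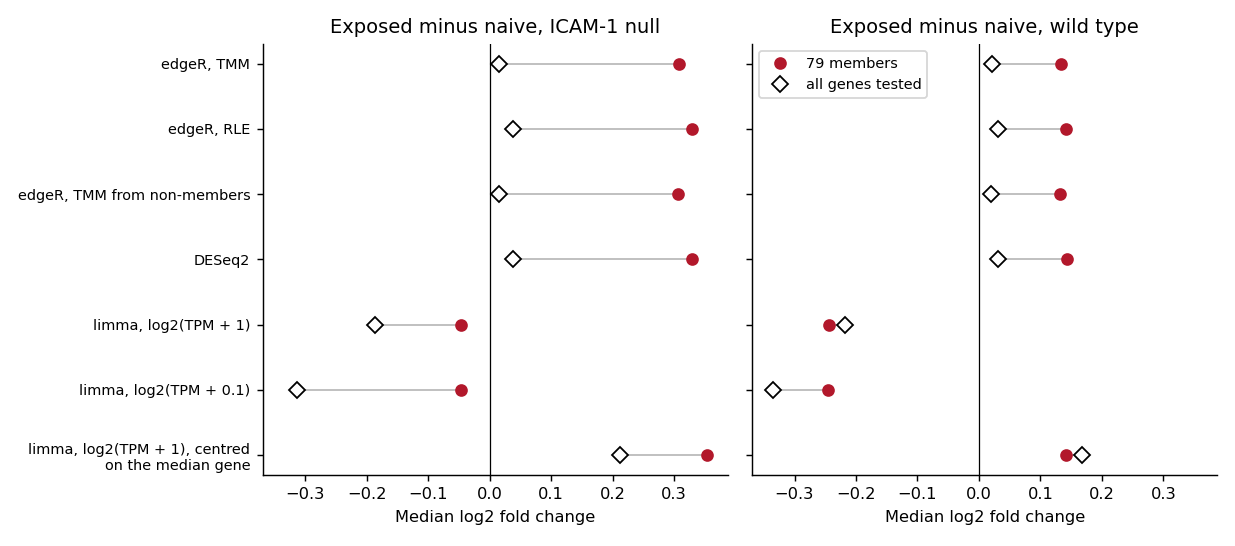
Median log2 fold change between exposed and naive mice of the 79 tested members (filled circles) and of all genes tested (open diamonds) under 7 ways of scaling and testing, in ICAM-1 null mice on the left and wild type mice on the right. In null mice the members lie above all genes in every row, at 0.31 against 0.02 with TMM and at -0.05 against -0.19 on log2(TPM + 1); in wild type mice they lie above with TMM (0.13 against 0.02) and on log2(TPM + 0.1) (-0.24 against -0.33) and below on log2(TPM + 1) (-0.24 against -0.22), centred or not.

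The exposure comparisons of null and wild type mice rest on separate libraries. Of the 79 members, 77 had a larger TMM-scaled difference in null mice. EdgeR called 69 higher in null and 19 in wild type mice, 18 of them in both. The matching shares of all genes were not counted, so these overlaps are descriptions only. Spearman's rho between the 2 sets of differences was 0.67, a description over genes that share libraries. The test of the difference between the responses, the interaction, called 0 members in either direction with edgeR, DESeq2 and limma on log2(TPM + 1), where these tools called 0.18%, 0.554% and 0.366% of all genes higher and 0.151%, 0.689% and 0.171% lower. At an unadjusted p under 0.05, edgeR counted 13 of the 79 members (16.46%), where 9.85% of all genes passed. Without a filter it counted 11 (13.9%), against 9.58% of all genes. DESeq2 counted 22 members (27.8%), where 2134 of the 20501 genes fitted passed. Limma on log2(TPM + 1) counted 33 (41.8%), against 10.9% of all genes. The edgeR count also rested on single libraries. It was 34 to 42 without exposed null replicate 1, exposed wild type replicate 5, naive null replicate 3 or naive wild type replicate 4. It was 3 to 7 without exposed null replicate 3 or 5, naive null replicate 2 or naive wild type replicate 2 or 3. In these fits 8.29% to 11.8% of all genes passed. The median interaction was 0.18 for members and -0.03 for all genes, and the member median was 0.04 with replicate 4 as the only naive wild type library. For Rps25 the interaction was 0.30 (SE 0.09, adjusted p = 0.19 by edgeR). A response that differed between the genotypes was therefore not shown for any single member.

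The level of each member by library showed the same pattern by mouse. On TMM-scaled counts 77 or more of the 79 members lay above their own mean over the 19 libraries in exposed null replicates 3, 4 and 5, and 70 in replicate 2, but 35 in replicate 1. In exposed wild type mice the numbers were 73, 55, 19, 63 and 75. In naive null mice they were 2, 1, 43, 4 and 4, and in naive wild type mice 19, 42, 41 and 4. Single libraries in each group therefore stood apart, with most members moving together in each.

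**Figure D4:**
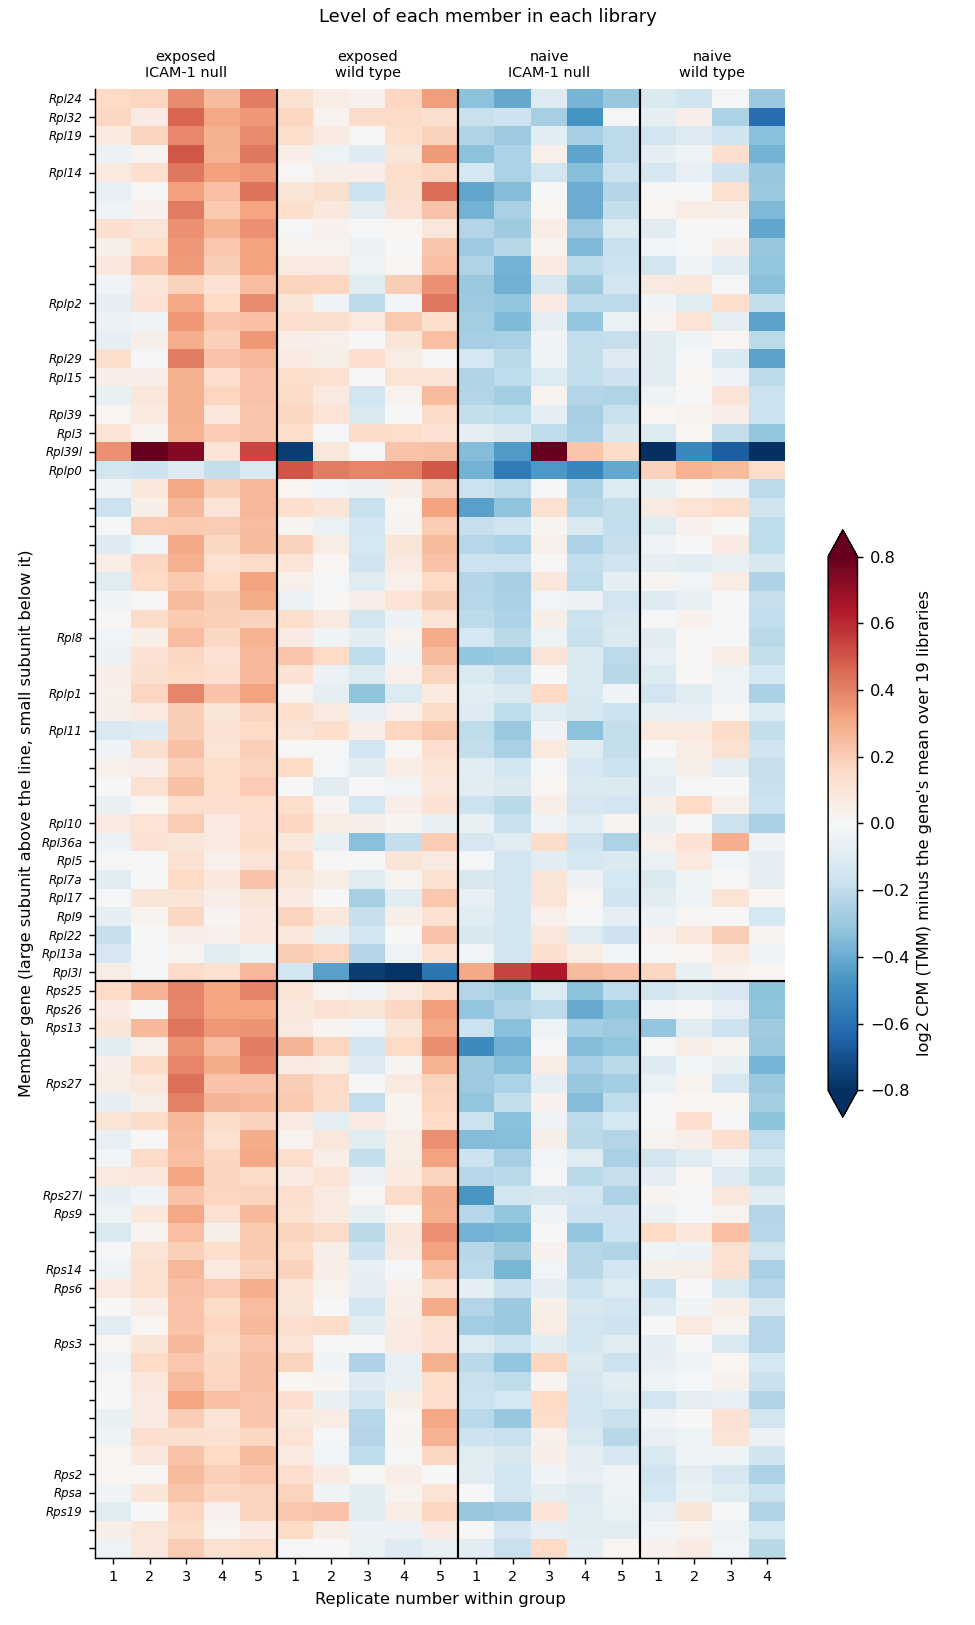
Level of each of the 79 tested members (rows, large subunit above the line, each subunit in the order of the exposure difference in null mice, with names for members in the text) in each of the 19 libraries (columns, by group and replicate number), as log2 CPM on TMM-scaled counts minus the gene's mean over all libraries; colours are capped at ±0.8, which 4 values of Rpl39l exceed. Most rows change together by library, while Rplp0 separates null from wild type mice in both treatments. Rpl3l also separates them within each treatment, though edgeR called it by genotype only after exposure. Rpl39l separates them only in naive mice.

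Between the genotypes few members differed. In naive mice, 1 member was higher and 1 lower in null than in wild type mice (edgeR), where 4.31% of all genes were higher and 2.55% lower, with a member median of -0.08 beside 0.01 for all genes. In exposed mice, 3 were higher and 1 lower, where 4.43% of all genes were higher and 4.04% lower, with a member median of 0.08 beside -0.0046 for all genes. In naive mice the member median was 0.06 with replicate 4 as the only naive wild type library, which turned its direction. DESeq2 called 1 member higher and 2 lower in naive mice, where 5.52% of all genes were higher and 3.61% lower, and 3 higher and 1 lower in exposed mice, where 5.51% were higher and 5.14% lower. On log2(TPM + 1) limma called 0 members higher and 6 lower in naive mice, where 3.32% of all genes were higher and 3.83% lower, and 2 higher and 1 lower in exposed mice, where 3.66% were higher and 3.88% lower. Both edgeR comparisons called the same member lower.

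That member was Rplp0, the P-stalk protein that anchors Rplp1 and Rplp2 to the large subunit and is often used as a reference gene in PCR. It lies at chr5:115697526-115701786 (+) of GRCm39, per the deposited tables. It had 1086, 1050, 1118, 1038 and 1082 TPM in exposed null mice, against 1658, 1733, 1746, 1636 and 1598 TPM in exposed wild type mice. In naive mice it had 1169, 1022, 1056, 1053 and 1175 TPM in null, against 1836, 1971, 1899 and 1737 TPM in wild type. Within each treatment all null libraries were below all wild type libraries, with a gap larger than the range within any group. The difference was -0.68 (SE 0.05, adjusted p = 8.6e-09) in naive and -0.59 (SE 0.05, adjusted p = 4.3e-08) in exposed mice by edgeR, or 0.624-fold and 0.667-fold, and on log2(TPM + 1) it was -0.77 and -0.64. Among the 20501 genes tested, Rplp0 ranked 51 by p in naive and 60 in exposed mice.

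With exposure, Rplp0 differed by 0.32 (SE 0.05, adjusted p = 1.9e-05) in null and by 0.22 (SE 0.05, adjusted p = 0.0017) in wild type mice on TMM-scaled counts by edgeR. The rise was not seen on TPM: its mean was 1075 TPM in exposed and 1095 TPM in naive null mice, with overlapping libraries. On log2(TPM + 1) it was lower in wild type mice by limma (-0.15, adjusted p = 0.047). No annotated gene overlapped it, and its only processed copy by name, Rplp0-ps1, held 0.0957% as many counts as Rplp0. By genotype, edgeR called 4.31% of all genes higher and 2.55% lower in naive mice, and 4.43% and 4.04% in exposed mice. Of the 27 other tested genes within 500 kb of Rplp0, 5 were called in each genotype comparison (18.5%). Of these, Gcn1, Pxn, Coq5 and Mlec were called in both comparisons; they were named after their values were seen. Gcn1, a ribosome-binding activator of the kinase Gcn2 that starts at position 115703313 next to Rplp0, was higher in null mice by 0.89 (SE 0.10, adjusted p = 3e-06) in naive and by 1.02 (SE 0.10, adjusted p = 1.6e-07) in exposed mice. Pxn, the focal adhesion protein paxillin on the other side of Rplp0, was lower in null mice by edgeR, at -0.88 in naive and -0.67 in exposed mice.

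**Figure D5:**
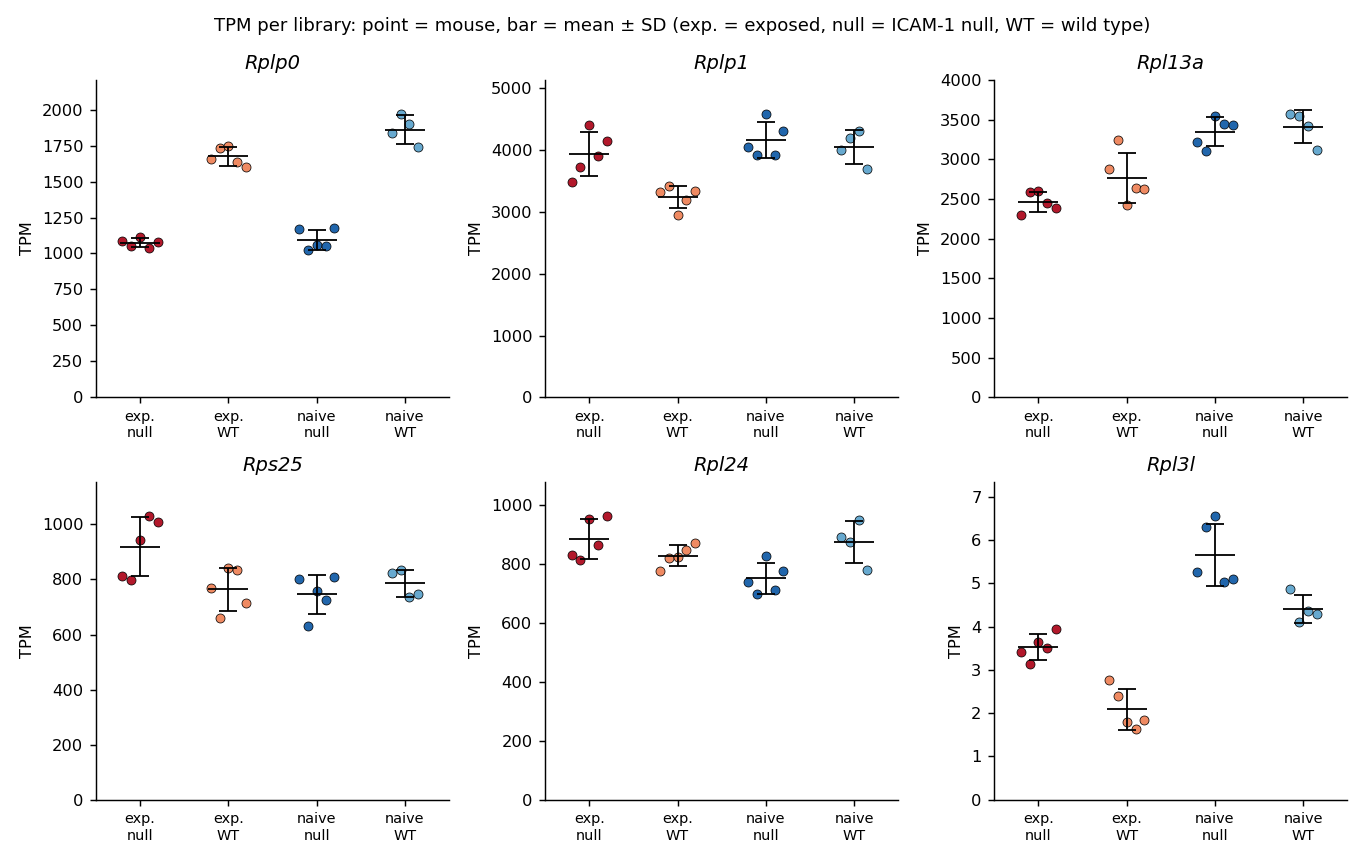
TPM of 6 members in each library; points are mice, bars are mean ± SD, and all y axes start at 0. Rplp0 lies near 1075 and 1095 TPM in exposed and naive null mice, against 1674 and 1861 TPM in exposed and naive wild type mice, with no overlap; Rplp1, Rpl13a, Rps25 and Rpl24 differ less between genotypes, and Rpl3l is lower in exposed than in naive mice of each genotype on TPM.

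The partners of Rplp0 in the stalk were not called lower in null mice. Rplp1 had 3489, 3729, 4403, 3899 and 4150 TPM in exposed null mice, against 3316, 3417, 2947, 3186 and 3336 TPM in exposed wild type mice. All exposed null libraries were above all exposed wild type libraries on TPM, and the TMM-scaled difference was 0.31 (SE 0.08, adjusted p = 0.015 by edgeR), a call lost when only these 2 groups were fitted (edgeR adjusted p = 0.054). In naive mice Rplp1 had 4159 ± 290 TPM in null (SD, n = 5) and 4052 ± 269 TPM in wild type mice (SD, n = 4), and edgeR called no difference (0.10, SE 0.08, adjusted p = 0.64). Rplp2 had 893 ± 106 TPM in exposed null, 837 ± 90.5 TPM in exposed wild type, 876 ± 76.6 TPM in naive null and 1011 ± 92.3 TPM in naive wild type mice (SD). Neither genotype comparison called Rplp2, at 0.12 (SE 0.11, adjusted p = 0.62) in exposed and -0.14 (SE 0.11, adjusted p = 0.61) in naive mice by edgeR. Rpsa, a small-subunit protein also known as a laminin receptor, had 1442 ± 110 TPM in exposed null, 1343 ± 73.9 TPM in exposed wild type, 1543 ± 76.4 TPM in naive null and 1625 ± 99.3 TPM in naive wild type mice (SD). Its genotype differences were 0.08 and 0.04 in exposed and naive mice, with edgeR adjusted p of 0.48 and 0.83.

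Rps25 was also higher in null than in wild type mice after exposure by edgeR. It had 813 to 1030 TPM in exposed null and 659 to 842 TPM in exposed wild type mice, and on TMM-scaled counts these libraries did not overlap (411 to 485 CPM, against 357 to 406 CPM). The difference was 0.25 (SE 0.06, adjusted p = 0.011 by edgeR). It was 0.26 on log2(TPM + 1), with a limma adjusted p of 0.086.

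The low-level paralogs behaved differently from the rest. Rpl3l, which replaces Rpl3 in ribosomes of heart and skeletal muscle, had 3.41, 3.13, 3.65, 3.505 and 3.94 TPM in exposed null mice and 2.77, 2.40, 1.81, 1.64 and 1.84 TPM in exposed wild type mice. It had 5.26, 6.29, 6.55, 5.02 and 5.11 TPM in naive null and 4.86, 4.10, 4.35 and 4.30 TPM in naive wild type mice. The 4 groups did not overlap on TPM in any of the 4 comparisons. By edgeR Rpl3l was lower after exposure in wild type mice (-0.69, SE 0.18, adjusted p = 0.0045) and higher in null than in wild type mice after exposure (0.78, SE 0.17, adjusted p = 0.0053). Its other differences, -0.33 with exposure in null mice and 0.42 by genotype in naive mice, had edgeR adjusted p of 0.13 and 0.22, and its interaction was 0.36 (SE 0.25, adjusted p = 0.69).

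Rpl39l, a paralog of Rpl39 known from the testis, had 5.53, 7.91, 7.43, 4.47 and 6.64 TPM in exposed null mice and 1.89, 4.66, 4.49, 5.01 and 4.85 TPM in exposed wild type mice. It had 3.82, 3.35, 12.8, 6.28 and 6.28 TPM in naive null and 2.27, 3.84, 2.81 and 1.96 TPM in naive wild type mice. Naive null replicate 3 was the highest of all libraries. By edgeR Rpl39l was higher in null than in wild type naive mice (1.36, SE 0.36, adjusted p = 0.02), a call lost without naive null replicate 3 (0.94, adjusted p = 0.074) and without naive wild type replicate 1 or 4 (adjusted p = 0.069 and 0.07). It was also higher after exposure in wild type mice by edgeR (1.03, SE 0.36, adjusted p = 0.025). Their widely expressed partners Rpl3 and Rpl39 had 725 ± 73.9 and 496 ± 38.9 TPM in exposed null, 696 ± 44.7 and 482 ± 27.6 TPM in exposed wild type, 731 ± 53.6 and 506 ± 20.0 TPM in naive null, and 779 ± 105 and 592 ± 43.1 TPM in naive wild type mice (SD). Rps27l, a paralog of Rps27 known as a target of p53, had 190 ± 17.3 TPM in exposed null, 199 ± 6.57 TPM in exposed wild type, 193 ± 16.7 TPM in naive null and 237 ± 11.0 TPM in naive wild type mice (SD). By edgeR it was higher after exposure in null mice on TMM-scaled counts (0.33, SE 0.08, adjusted p = 0.0018; its mean TPM was slightly lower), while its difference in wild type mice was 0.13 (SE 0.08, adjusted p = 0.22).

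The members split by the run of pyrimidines at their start had close values, given as a description. The 13 with a run exactly at the start had median exposure differences on TMM-scaled counts of 0.34 in null and 0.16 in wild type mice, against 0.29 and 0.12 for the 18 tested members with no run near the start. All 13 were higher in null mice and 4 in wild type mice by edgeR, against 17 and 6 of the 18. Among the members with the smallest p in null mice, Rpl14 had a run at the annotated start and Rpl19 and Rps25 had one near it. Rpl24 and Rps13 had none near it, and neither did Rplp0.

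Near-identical copies limit some members. Of the 80, 62 have processed copies by name in the tables (319 rows), whose counts came to a median of 2.67% of the member's own and to over 5% for 14 members, the highest being Rps6 at 29.7%, Rpl15 at 24.4% and Rpl36a at 20.1%. Annotated genes overlap the spans of 45 members, and some of these genes are small RNA genes on the same strand. No source used here gives the strand or counting options. How far reads were shared between these members and their overlapping genes could therefore not be checked.

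The lists that follow are read beside the shares of all genes given above: by edgeR 21.4% of genes were higher and 23.4% lower in null and 20.1% and 20.2% in wild type mice, and on log2(TPM + 1) 10.9% and 41% in null and 11% and 41% in wild type mice. Relatives of the members outside the rule showed the same dependence on scaling: by edgeR on TMM-scaled counts 8 of 10 were higher and 0 lower in null mice and 3 higher and 0 lower in wild type mice, while by limma on log2(TPM + 1) 0 were higher and 1 and 5 lower. Rack1, a scaffold on the small subunit, differed by 0.32 (SE 0.05, adjusted p = 4.2e-05 by edgeR) in null mice, and by -0.04 on log2(TPM + 1), where its direction turned. Other mRNAs known to carry the TOP motif had 11 of 23 higher and 2 lower in null mice and 9 higher and 1 lower in wild type mice by edgeR, while on log2(TPM + 1) limma called 1 higher and 11 lower in null and 1 higher and 13 lower in wild type mice. Vim, the intermediate filament vimentin, differed by 0.89 in null (adjusted p = 3e-08) and 0.81 in wild type mice (adjusted p = 4e-07) by edgeR, and Eef1a1, which delivers aminoacyl-tRNA to the ribosome, by 0.42 and 0.34 on TMM-scaled counts, against 0.07 and -0.03 on log2(TPM + 1). Vim kept its direction on log2(TPM + 1), at 0.58 and 0.44.

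Genes that build and load ribosomes had larger median exposure differences than the members. By edgeR, 36 of 48 genes of ribosome biogenesis and RNA polymerase I were higher and 2 lower in null mice, with a median of 0.58, and 34 were higher and 1 lower in wild type mice, with a median of 0.56. By limma on log2(TPM + 1), 21 were higher and 7 lower in null and 19 higher and 5 lower in wild type mice, with medians of 0.21 and 0.14. Rrs1, needed for assembly of the large subunit, averaged 190 TPM in exposed and 48.8 TPM in naive null mice, and 178 TPM in exposed and 46.6 TPM in naive wild type mice; its differences were 2.31 (SE 0.14, adjusted p = 1.2e-11) and 2.32 (SE 0.15, adjusted p = 6.3e-11) by edgeR. Gnl3, a nucleolar GTPase, was higher by 1.62 in null and 1.45 in wild type mice. Of 30 initiation, elongation and release factors, 25 were higher and 2 lower in null mice, and 21 were higher and 2 lower in wild type mice, with medians of 0.54 and 0.51. Limma on log2(TPM + 1) called 12 higher and 4 lower in null and 11 higher and 6 lower in wild type mice, with medians of 0.16 and 0.10. Eif4e, which binds the mRNA cap, averaged 74.7 TPM in exposed and 22.02 TPM in naive null mice, and 47.8 TPM in exposed and 24.5 TPM in naive wild type mice, and its edgeR difference between exposed null and exposed wild type mice was 0.49 (SE 0.09, adjusted p = 0.00067). The helicase Eif4a1 and the release factor Etf1 were higher by 1.51 and 1.87 in null mice. Rrs1, Gnl3, Eif4e, Eif4a1 and Etf1 were also higher on log2(TPM + 1) in both genotypes by limma.

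Of 20 genes of mTORC1 and LARP1, 6 were higher (30%) and 8 lower (40%) in null mice, and 9 higher (45%) and 8 lower (40%) in wild type mice by edgeR, against 20.1% to 23.4% of all genes in each direction. On log2(TPM + 1) limma called 0 higher and 11 lower (55%) in null and 1 higher and 10 lower (50%) in wild type mice, against 41% of all genes lower. With a list of 20, 1 gene is 5% of it. Mlst8, a subunit of mTORC1, averaged 8.69 TPM in exposed and 25.1 TPM in naive null mice, and differed by -1.18 (SE 0.11, adjusted p = 2.3e-08) in null and -1.08 (SE 0.12, adjusted p = 2.4e-07) in wild type mice. Eif4ebp2, which holds back Eif4e, differed by -0.73 and -0.71. These genes were among those lower, while the list medians on TMM-scaled counts were -0.06 in null and -0.05 in wild type mice. Of 11 tested genes of ribosomal stress and p53, 4 were higher (36.4%) and 5 lower (45.5%) in each genotype by edgeR, and 3 higher (27.3%) and 7 lower (63.6%) on log2(TPM + 1). Cdkn1a, a p53 target that halts the cell cycle, was higher by 2.07 in null and 2.08 in wild type mice, and Mdm2 by 1.42 and 1.56. Cdkn1a and Mdm2 were among those higher, while the list medians on TMM-scaled counts were -0.21 in null and -0.04 in wild type mice. On log2(TPM + 1) these medians were -0.50 and -0.42. Of 78 mitochondrial ribosomal protein genes, 9 were higher (11.5%) and 16 lower (20.5%) in null mice by edgeR, against 21.4% and 23.4% of all genes, and 3 higher (3.85%) and 22 lower (28.2%) in wild type mice, against 20.1% and 20.2%. Their medians were -0.11 and -0.13 on TMM-scaled counts. On log2(TPM + 1) limma called 1 higher and 60 lower (76.9%) in null and 0 higher and 65 lower (83.3%) in wild type mice, against 41% of all genes lower in each, with medians of -0.43 and -0.49. Mrpl30 was higher in null than in wild type mice by edgeR in naive (1.11, SE 0.09, adjusted p = 1.2e-08) and exposed mice (1.00, SE 0.08, adjusted p = 2e-08).

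Total counts were 56.99 to 66.3 M in exposed null, 42.6 to 61.0 M in exposed wild type, 59.8 to 78.8 M in naive null and 32.8 to 80.3 M in naive wild type libraries. Icam1 averaged 10.8 ± 1.59 TPM in exposed null and 899 ± 156 TPM in exposed wild type mice, and 8.13 ± 2.63 TPM in naive null and 74.6 ± 10.7 TPM in naive wild type mice (SD). All 10 alveolar macrophage markers were detected, with sums of 21990 to 27530, 22720 to 26760, 26230 to 29290 and 23100 to 26890 TPM in exposed null, exposed wild type, naive null and naive wild type libraries. The 10 epithelial markers summed to 715 to 948, 1073 to 3117, 466 to 633 and 494 to 634 TPM in these groups, and the 5 red cell markers to 130 to 350, 370 to 2399, 97.6 to 352 and 134 to 410 TPM. Epithelial sums were highest in exposed wild type libraries, with no overlap with another group, and red cell sums there overlapped only the naive wild type range. The 9 lymphocyte markers summed to 213 to 268, 386 to 455, 264 to 337 and 548 to 603 TPM, and the 6 markers of monocytes and interstitial macrophages to 31.0 to 46.3, 38.8 to 58.6, 25.2 to 37.3 and 27.9 to 45.8 TPM. Lymphocyte sums were lower in all null than in all wild type libraries of the same treatment, and most of that gap was Cd2, at 163 TPM in exposed null and 316 TPM in exposed wild type mice, and 236 TPM in naive null and 496 TPM in naive wild type mice. Of the 8 lymphocyte markers tested, edgeR called Cd2 and Prf1 lower in null mice after exposure and only Cd2 in naive mice. The 8 markers without Cd2 summed to 65.3 to 86.9, 88.9 to 131, 65.1 to 80.3 and 83.7 to 97.1 TPM in exposed null, exposed wild type, naive null and naive wild type libraries, a smaller gap with no overlap within a treatment. The 9 neutrophil markers summed to 76.1 to 124, 70.98 to 99.8, 69.2 to 88.9 and 36.2 to 60.8 TPM, with Camp at 0 in every exposed library and Ngp at 0 in every exposed null, naive null and naive wild type library. The part of these cells in the member differences was not tested, and in bulk samples fewer cells of a type and less RNA per cell cannot be told apart.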

How the data were processed

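Poly(A)-selected libraries were sequenced as paired reads of 150 bases, 20 M of them planned for each library, per the labels' protocols. STAR, StringTie version 2 and the build GRCm39 are named in the submitters' processing notes, and no source used here gives the strand or counting options. The authors deposited estimated counts, already whole numbers, beside TPM values for 56941 genes and 19 libraries. Counts went into edgeR 4.0.16 (R 4.3.3; quasi-likelihood F test, two-sided, TMM, filterByExpr at its minimum count of 10 and total of 15, one model for all libraries), with Benjamini-Hochberg adjustment over 20501 genes. DESeq2 1.42.0 and limma 3.58.1 on log2(TPM + 1) were alternatives. SE is the log2 difference divided by the square root of F. The fit was tested on simulated counts. No 2 libraries of a group were identical (lowest chi-square per gene 3.7 on counts divided by 4). The members, gene lists and the rule for named genes (the 4 most abundant of each subunit, the 5 smallest p in each direction, paralogs, stalk genes, Rpsa and members filtered out) were chosen with earlier results of these data known. Some genes that this rule or these lists would name are not reported here.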

Additional observations from a re-analysis of the deposited data

Results flagged for a closer look

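In 96 sets of values (each named member, and the summed TPM, in each of the 4 groups), the highest or lowest library was set against its neighbours by Dixon's criterion, which chance passes in about 1 of 20 such sets. It picked out 4 single libraries. Rpl39 was low in naive wild type replicate 4, at 527.9 TPM against 606.8 TPM in the nearest other library. Rpl39l was low in exposed wild type replicate 1, at 1.89 TPM against 4.49 TPM. Rpl8 was high in exposed wild type replicate 5, at 1626 TPM against 1478 TPM. Rps27l was low in naive null replicate 1, at 164.0 TPM against 196.8 TPM.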

How the results depend on the processing

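Scaling changed the exposure results most. With limma on log2(TPM + 1) and on log2(TPM + 0.1), null mice had 2 members higher and 8 lower with a median of -0.0464 on both, and wild type mice 0 higher and 55 lower with medians of -0.2447 and -0.2448. On these 2 scales the wild type differences turned for Rpl19 (-0.0774 and -0.0775), Rpl3 (-0.1544 and -0.1546), Rplp0 (-0.1518 and -0.1519), Rps13 (-0.0896 and -0.0897) and Rps25 (-0.0434 and -0.0435), and naive null against naive wild type mice gave 0 members higher and 6 and 4 lower. The shares of all genes on log2(TPM + 1) are given above. On log2(TPM + 0.1), 11.0% of all genes were higher and 40.9% lower in null mice, and 11.2% and 40.6% in wild type mice. By genotype in naive mice these shares were 3.09% and 3.30%. Log2(TPM + 1) centred on the median gene of each library, added after seeing the data, gave 73 members higher and 0 lower in null mice (all genes 42.3% and 18.7%). In wild type mice it gave 17 higher and 1 lower (21.5% and 1.27% of members, all genes 36.9% and 17.7%). By genotype it gave 1 higher and 2 lower in naive mice (all genes 3.77% and 3.27%) and 1 higher and 1 lower in exposed mice (all genes 4.56% and 3.30%). In wild type mice the member median minus that of all genes was -0.03 on log2(TPM + 1), centred or not, and 0.09 on log2(TPM + 0.1). Without a filter, 12 members were higher in wild type mice (all genes 11.4%), and DESeq2 called 2 lower in naive null mice. A fit with naive wild type replicate 4 alone was also added later and assumes that library to vary like those of the other groups. Its member median was 0.26 with exposure in wild type mice, beside 0.0346 for all genes. It was 0.0645 by genotype in naive mice, beside 0.0119, and 0.0403 for the interaction, beside -0.0315. The naive wild type TPM share was then 7.88%. The cause was not tested.

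Leaving out each library in turn gave 64 to 74 members higher and 0 lower in null mice (medians 0.28 to 0.35; all genes 19.6% to 21.7% and 21.7% to 24.0%), 8 to 23 higher and 1 lower in wild type mice (0.08 to 0.16; 17.2% to 20.3% and 17.4% to 20.6%), 0 to 1 higher and 1 to 3 lower by genotype in naive mice (-0.13 to -0.05; 3.26% to 4.65% and 1.82% to 2.70%) and 3 to 6 higher and 1 lower in exposed mice (0.06 to 0.13; 3.72% to 4.45% and 3.35% to 3.94%). The highest count in exposed mice, 6, came without exposed null replicate 1. Of 493 values of 17 single-member results under the alternatives, 464 kept their direction and call, 19 kept the direction only and 10 turned. Same-numbered mice did not deviate together over all genes (correlations of -0.09 to 0.13 over 27 pairs, 2 over 0.1). No pairing by number was thus seen, though these correlations could miss one that touches only part of the genes. With a replicate block 14 members were higher in wild type mice (all genes 19.004%).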

Other observations

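Across the 79 tested members, Spearman's rho between the mean TPM and the TMM-scaled exposure difference was -0.29 in null and -0.18 in wild type mice. These are descriptions over genes that share the same libraries.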
